A study of Homo sapiens with 6 samples.

Results

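The 10 genes *IFIH1*, *DHX58*, *TLR3*, *CGAS*, *ZBP1*, *MAVS*, *TICAM1*, *TBK1*, *IKBKE* and *ADAR* encode sensors of RNA and DNA, the adaptors and kinases that relay their signal toward interferon, and an RNA-editing enzyme. They were chosen by gene symbol from a list of names, which was made with earlier results of these data known. All 10 were found among the 23152 genes of the deposited count table. RNA had been sequenced from T24 cells, an established human bladder cancer cell line, in 3 vector libraries and 3 libraries overexpressing RNF112 (oeRNF112), a RING finger E3 ubiquitin ligase. Both groups were grown in the same medium, and the vector group is the control. The treatment text deposited with all 6 samples describes a transfection of siRNA with a lipid reagent, whereas the labels of the groups name a vector and an overexpression. In its methods the study describes both lipid transfection of an overexpression plasmid and a T24 line made stable with lentivirus. Which of them was sequenced, how long after delivery, and whether the replicates were separate cultures is not given in the sources used here, so the p-values below measure the spread between these samples, which may be technical.

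The libraries held between 40029547 and 41259569 counted reads. *RNF112* had 19 to 27 counts in the vector libraries and 29753 to 36963 in the oeRNF112 libraries, which may include reads from the introduced construct. As a check of the label, the epithelial keratins *KRT7*, *KRT8*, *KRT18* and *KRT19* together had 141034 to 175343 counts in the vector libraries and 114525 to 133432 in the oeRNF112 libraries, and *KRT7* and *KRT18* fell by 0.48 and 0.51 on the log2 scale (edgeR, adjusted p = 0.0226 and 0.0130). The uroplakins *UPK1A*, *UPK2* and *UPK3A*, which mark differentiated urothelium, had at most 20 counts in any library, whereas the urothelial transcription factors *PPARG* and *GATA3* had 2056 to 2485 and 117 to 173 counts. The 9 leukocyte markers in the table summed to 140 to 168 counts in the vector libraries and 120 to 236 in the oeRNF112 libraries, where the highest sum included 97 counts of *LYZ* in replicate 1. The part of these markers in the results below was not tested.

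Cells watch for foreign or misplaced nucleic acid with receptors in separate compartments. In the cytosol, the RIG-I-like receptors bind double-stranded RNA and signal through the adaptor MAVS on mitochondria, while cGAS binds DNA and makes a cyclic dinucleotide that activates the adaptor STING. TLR3 reads double-stranded RNA inside endosomes and signals through TICAM1 (TRIF), so the pair is part of the same pathway without being cytosolic. All of these routes meet at the kinases TBK1 and IKKε (*IKBKE*), which phosphorylate interferon regulatory factors. Several of the sensors are themselves interferon-stimulated genes. Bladder tumours are treated with instilled BCG, a live bacterium that engages innate immune receptors, which makes this machinery of interest in urothelial cells.

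The promoters of *IFIH1*, *TLR3* and *MAVS* are shown first, because they belong to a sensor that rose, the sensor with the lowest level among those tested and an adaptor that fell in oeRNF112. The sequences come from RefSeq (GRCh38.p14), which held promoter windows for 7 of the 10 genes and none for *DHX58*, *CGAS* or *ZBP1*. Each starts 250 bases before the annotated start of transcription and ends at the tenth base after it, is read 5′ to 3′ on the strand of the gene, and has motif matches on either strand in capitals. The windows lie at chr2:162318675-162318934 on the minus strand (*IFIH1*), at chr4:186068906-186069165 on the plus strand (*TLR3*) and at chr20:3846584-3846843 on the plus strand (*MAVS*).
IFIH1: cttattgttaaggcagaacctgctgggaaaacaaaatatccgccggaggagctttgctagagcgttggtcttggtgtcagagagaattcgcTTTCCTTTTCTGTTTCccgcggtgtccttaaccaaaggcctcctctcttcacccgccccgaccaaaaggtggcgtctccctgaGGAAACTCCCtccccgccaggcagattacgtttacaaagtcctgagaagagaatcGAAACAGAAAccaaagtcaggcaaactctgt
TLR3: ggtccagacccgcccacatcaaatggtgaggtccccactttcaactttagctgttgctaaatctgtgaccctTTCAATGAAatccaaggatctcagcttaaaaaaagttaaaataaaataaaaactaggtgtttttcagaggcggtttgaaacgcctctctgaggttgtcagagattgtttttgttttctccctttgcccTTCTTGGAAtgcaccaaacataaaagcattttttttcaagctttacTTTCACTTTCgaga
MAVS: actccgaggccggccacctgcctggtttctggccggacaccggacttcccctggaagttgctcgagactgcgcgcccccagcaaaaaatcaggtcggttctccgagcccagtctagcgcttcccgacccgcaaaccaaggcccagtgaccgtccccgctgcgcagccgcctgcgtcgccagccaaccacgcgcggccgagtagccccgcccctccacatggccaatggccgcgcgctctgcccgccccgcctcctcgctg

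Both strands of the whole 300-base windows were searched for 4 motifs: the core of the interferon-stimulated response element or ISRE (GAAA, any 2 bases, GAAA), the STAT element GAS (TTC, any 3 bases, GAA), the E-box CACGTG and the NF-kB consensus. The ISRE core was found in 2 of the 7 genes, *IFIH1* and *TLR3*, and in 3.57% of all 35116 windows. In *IFIH1* it occurred from 21 to 12 bases before the start on the strand of the gene and, in a pair of overlapping matches on the other strand, from 159 to 144 bases before it. In *TLR3* it reached across the start, from 4 bases before to the sixth base after it. GAS was found in *TLR3* only, at 2 places, and in 7.66% of all windows. The E-box occurred in *TBK1* and in 2 overlapping windows of *ADAR*, against 7.26% of all windows. The NF-kB consensus occurred in *IFIH1* and *TICAM1*, against 5.91% of all windows. None of these letters was found in the windows of *MAVS* and *IKBKE*. The percentages count windows and not genes, and *ADAR* has 3 windows, so they are not on the same scale as the counts of genes. A match is a description of the letters and not a measured binding site.

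**Figure D1:**
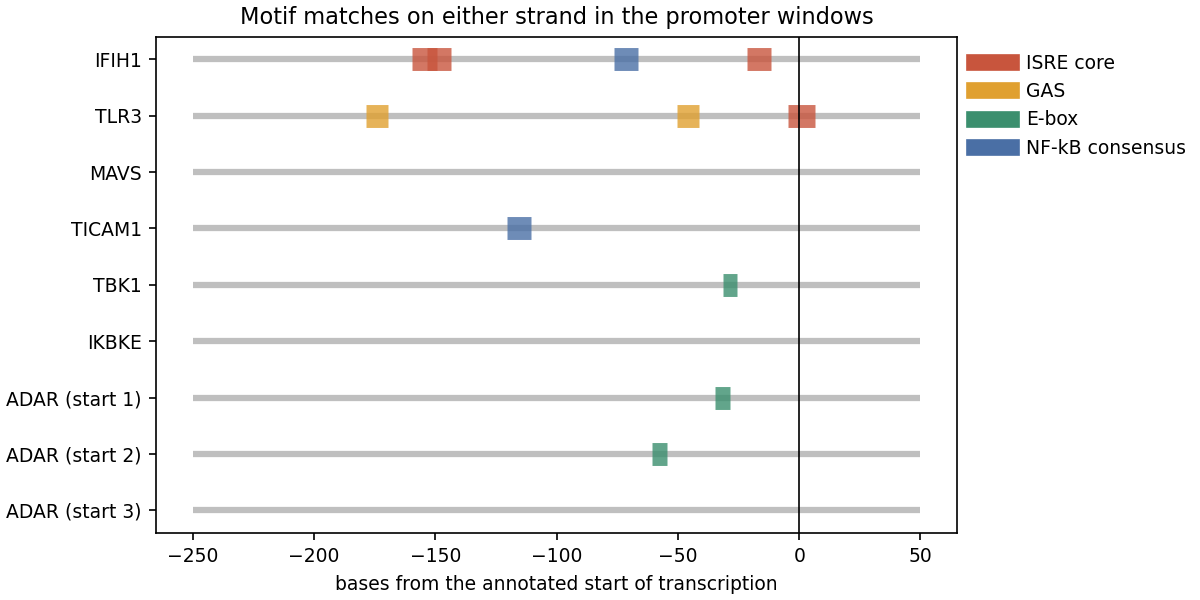
Matches to 4 motifs in the promoter windows of 7 genes, drawn against the distance in bases from the annotated start of transcription (vertical line); grey bars are the windows, and *ADAR* has 3 annotated starts. *IFIH1* holds 3 ISRE core matches and *TLR3* holds 1, while *MAVS* and *IKBKE* hold no match.

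Before any comparison between the groups, the genes differed widely in level. RPKM, the count scaled by the library total and by the length of the gene, allows levels of different genes to be set side by side. *ADAR* had the highest level in both groups, with an RPKM of 42.8 ± 5.77 (SD, n = 3) in vector and 56.2 ± 6.64 (SD, n = 3) in oeRNF112. *MAVS* and *TBK1* followed in vector with RPKM values of 17.4 ± 2.69 and 17.2 ± 1.38, and their libraries overlapped. In oeRNF112 they did not overlap, with *TBK1* at an RPKM of 18.6 ± 0.401 and *MAVS* at 13.7 ± 1.82. The next levels in vector were those of *TICAM1* (RPKM 9.02 ± 0.612), *IFIH1* (8.11 ± 0.805) and *IKBKE* (7.82 ± 0.337), each overlapping with its neighbour in this order. The order differed in oeRNF112 for the RIG-I-like receptors *IFIH1* and *DHX58*, which stood higher, while *TLR3* kept its place. *IFIH1*, with RPKM values of 10.9, 10.53 and 11.58, overlapped with *TICAM1* (10.9 ± 0.806), and *DHX58* passed *CGAS* and *IKBKE* to reach the sixth place. *TLR3* was the lowest of the genes tested, with RPKM values of 1.65 ± 0.389 and 1.38 ± 0.153. *ZBP1* was close to the limit of detection.

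**Figure D2:**
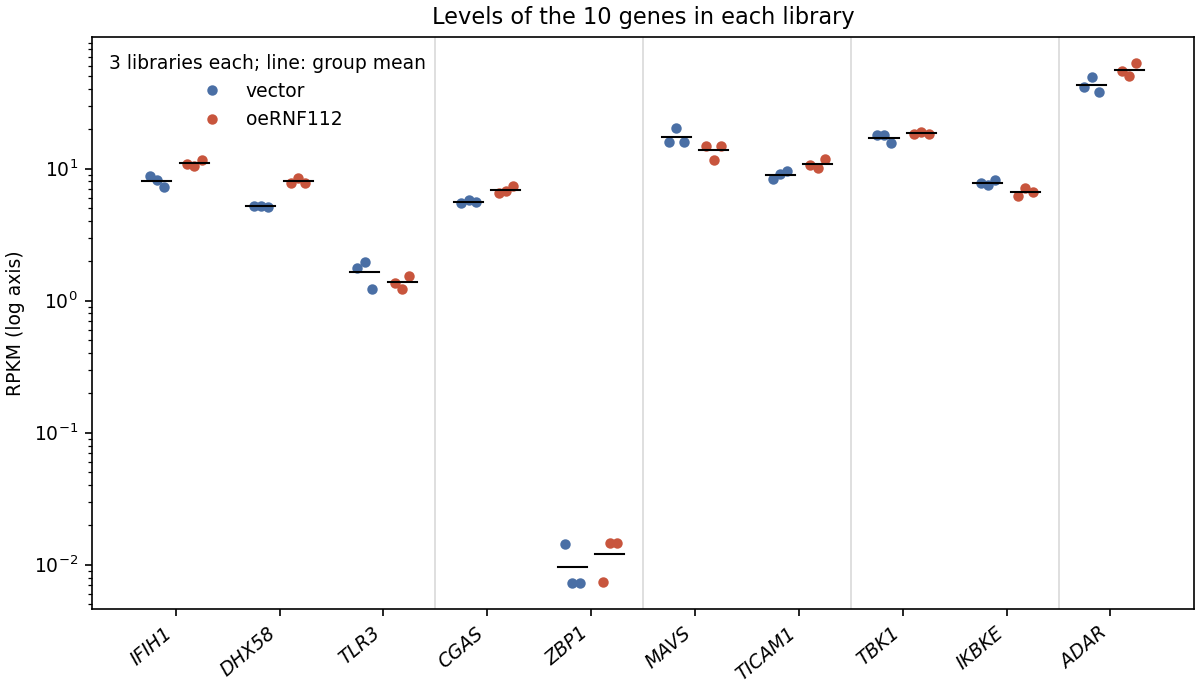
Level of each of the 10 genes in RPKM (log axis) in the 3 vector (blue) and 3 oeRNF112 (red) libraries; each point is a library, and the black line is the group mean. *ADAR* lies highest at a mean of 42.8 in vector and 56.2 in oeRNF112, *TLR3* lies below 2 in every library, and *ZBP1* lies below 0.015.

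The groups were compared to ask which parts of the sensing machinery had another mRNA level when RNF112 was overexpressed. *DHX58* and *IFIH1*, a pair of RIG-I-like receptors, were higher in oeRNF112, by 46.0% and 27.1%, and their adaptor *MAVS* fell by 25.7%. The endosomal sensor *TLR3* and the kinase *IKBKE* had lower fitted values, and *ADAR*, *CGAS* and *TICAM1* had higher ones, without passing the threshold. *TBK1* lay within 1.34% of the vector level. The test was edgeR's quasi-likelihood test over the 14467 genes that passed its filter on low counts, and a gene was called at a Benjamini-Hochberg adjusted p under 0.05. It called 3 of the 9 genes tested, against 18.1% of all genes tested. In the separate directions, 2 were higher (22.2%), against 9.97% of all genes tested, and 1 was lower (11.1%), against 8.14%. With library totals in place of edgeR's TMM factors, 2020 of all genes were higher and 663 lower, against 1442 and 1178. The 9 genes had a median log2 fold change of 0.17, against 0.0027 over all genes tested. On the scale of library-normalized counts (normalized CPM), 6 of the 9 genes had groups that did not overlap, which was so for 36.8% of all genes tested. In bulk RNA, fewer cells of a type and less RNA per cell cannot be told apart.

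**Figure D3:**
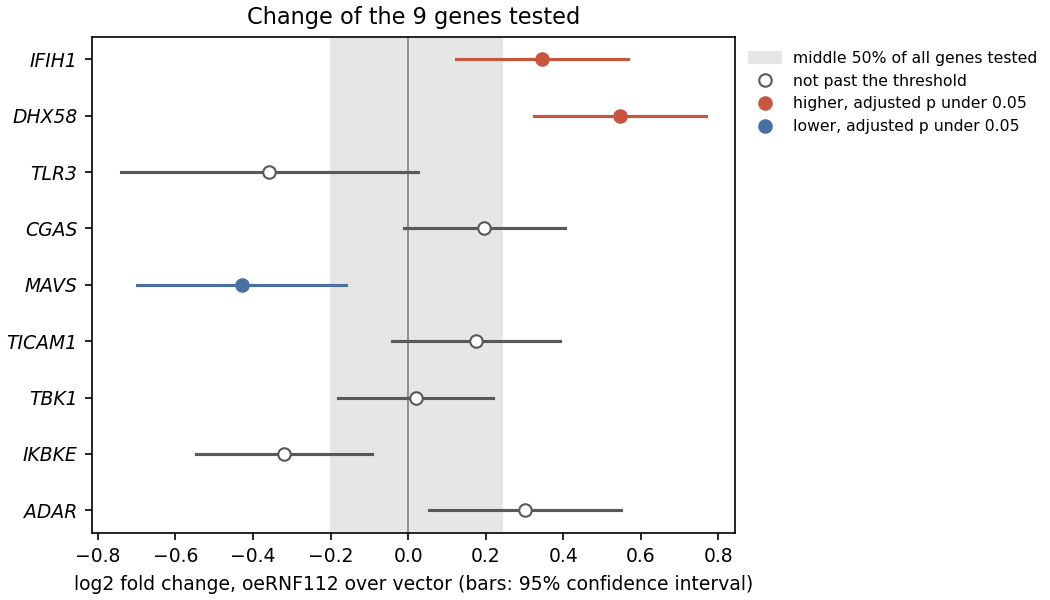
Log2 fold change of oeRNF112 over vector for the 9 genes tested, with 95% confidence intervals from edgeR's fit; filled points passed an adjusted p of 0.05, and the grey band holds the middle 50% of all 14467 genes tested (from -0.20 to 0.24). *DHX58* lies farthest to the right at 0.55 and *MAVS* farthest to the left at -0.43, while the interval of *TBK1* runs from -0.18 to 0.22.

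Among the RNA sensors, *DHX58* changed most. It encodes LGP2, a RIG-I-like receptor that lacks the signalling domains of its relatives and modulates them (chr17:42101404-42112733, minus strand, GRCh38). It had 577, 557 and 548 counts in the vector libraries and 831, 923 and 842 counts in the oeRNF112 libraries. Every oeRNF112 library lay above every vector library, and the vector libraries differed by 2.33% (coefficient of variation of the normalized CPM). The fitted log2 fold change was 0.55 (standard error 0.0997, 95% confidence interval from 0.32 to 0.77, adjusted p = 0.00583 from edgeR's test). It was called in all 6 fits that left out 1 library each, with adjusted p between 0.0102 and 0.0291.

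*IFIH1* encodes MDA5, the sensor of long double-stranded RNA (chr2:162267079-162318703, minus strand). It had 1310, 1189 and 1049 counts in vector and 1562, 1529 and 1674 counts in oeRNF112. The groups did not overlap here either, but the vector libraries spread wider than those of *DHX58*, with a coefficient of variation of 9.92%. On the log2 scale the difference was 0.35 (standard error 0.0995, 95% confidence interval from 0.12 to 0.57, adjusted p = 0.0386 from edgeR's test). This call rested on all 6 libraries. Leaving out vector replicate 1, 2 or 3 gave adjusted p of 0.0538, 0.0542 and 0.0929, and leaving out oeRNF112 replicate 1, 2 or 3 gave 0.113, 0.0602 and 0.121 (edgeR), at log2 fold changes between 0.28 and 0.44.

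*TLR3*, the endosomal sensor of double-stranded RNA (chr4:186069152-186088069, plus strand), had 442, 478 and 295 counts in vector and 330, 299 and 372 counts in oeRNF112. Vector replicate 3 lay below all oeRNF112 libraries in counts, and the vector libraries had the widest spread of the 9 genes, with a coefficient of variation of 22.4%. The fit gave -0.36 on the log2 scale (standard error 0.172, 95% confidence interval from -0.74 to 0.02), and edgeR's adjusted p was 0.177. Without vector replicate 3 it was -0.53, with an adjusted p of 0.0309.

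Of the sensors of other nucleic acids, *CGAS* was measured well and *ZBP1* was not. *CGAS* encodes the cytosolic DNA sensor cGAS (chr6:73413515-73452276, minus strand). It had 730, 752 and 719 counts in vector and 838, 879 and 951 counts in oeRNF112. The groups did not overlap, and the vector libraries were the closest of the 9 genes, with a coefficient of variation of 0.93%. The log2 fold change of 0.20 nevertheless had an adjusted p of 0.173 from edgeR's test and a 95% confidence interval from -0.01 to 0.41. In 180 exon bases *CGAS* overlaps *DDX43* on the opposite strand, and whether reads were counted by strand is not given in the sources used here. *ZBP1*, a sensor of left-handed Z-form nucleic acids that can start necroptosis (chr20:57603846-57620576, minus strand), had 2, 1 and 1 counts in vector and 1, 2 and 2 counts in oeRNF112. A count of 0 allows up to 3 reads, so *ZBP1* was within that limit in every library, failed the filter and has no fold change here. These limits cover counting error only.

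The adaptors differed from each other. *MAVS*, the mitochondrial adaptor of the RIG-I-like receptors (chr20:3846799-3876123, plus strand), had 7725, 9814 and 7550 counts in vector and 7026, 5596 and 7071 counts in oeRNF112. All oeRNF112 libraries lay below all vector libraries, but vector replicate 2 stood above the other vector libraries and oeRNF112 replicate 2 below the other oeRNF112 libraries. The log2 fold change was -0.43 (standard error 0.121, 95% confidence interval from -0.70 to -0.16, adjusted p = 0.0356 from edgeR's test). Among the fits that left out 1 library each, the call held only without vector replicate 3 (adjusted p = 0.0439). Without vector replicates 1 and 2 in turn the adjusted p was 0.0864 and 0.0563, and without oeRNF112 replicates 1, 2 and 3 it was 0.0729, 0.0973 and 0.0588. With library totals in place of TMM factors the log2 fold change was -0.34 (edgeR, adjusted p = 0.107).

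*TICAM1* encodes TRIF, the adaptor of TLR3 (chr19:4815932-4831704, minus strand). It had 925, 995 and 1034 counts in vector and 1144, 1110 and 1275 counts in oeRNF112, without overlap. Its log2 fold change was 0.17 (standard error 0.0974, 95% confidence interval from -0.04 to 0.39), and it was not called (edgeR, adjusted p = 0.24).

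Neither kinase was called with all 6 libraries, though their fitted values were unlike. *TBK1* (chr12:64451880-64502108, plus strand) had 2544, 2475 and 2147 counts in vector and 2498, 2634 and 2538 counts in oeRNF112. The groups overlapped, and the log2 fold change was 0.02 with a 95% confidence interval from -0.18 to 0.22 (adjusted p = 0.906 from edgeR's test). It was below 0 without vector replicate 3 and without oeRNF112 replicate 2. In 702 exon bases *TBK1* overlaps an antisense gene. *IKBKE*, which encodes IKKε, the relative of TBK1 that is induced in inflammation (chr1:206470476-206496889, plus strand), had 1145, 1094 and 1185 counts in vector and 888, 1047 and 965 counts in oeRNF112. All oeRNF112 libraries lay below all vector libraries. Its log2 fold change was -0.32 (standard error 0.102, 95% confidence interval from -0.55 to -0.09), with an adjusted p of 0.0548 from edgeR's test. It was called without vector replicate 2 (adjusted p = 0.041) and without oeRNF112 replicate 2 (0.0472), and with DESeq2 (0.0364). *IKBKE* overlaps the antisense gene *C1orf147* in 156 exon bases, and the count table lists that gene at no more than 1 count in any library.

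*ADAR* encodes ADAR1, which edits adenosine to inosine in double-stranded RNA and so keeps the cell's own RNA from being read by MDA5 (chr1:154582057-154628013, minus strand). It had 12186, 14188 and 10884 counts in vector and 15704, 14540 and 18255 counts in oeRNF112. In the deposited counts the groups did not overlap, whereas in normalized CPM vector replicate 2 (354.8) lay just above oeRNF112 replicate 2 (353.7). The log2 fold change was 0.30 (standard error 0.111, 95% confidence interval from 0.05 to 0.55, adjusted p = 0.0886 from edgeR's test). Without vector replicate 2 it was 0.39 (edgeR, adjusted p = 0.0236), and scaling by library totals also gave 0.39 (adjusted p = 0.0483). Gene counts do not separate the interferon-inducible long isoform of ADAR1 from the constitutive short one.

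**Figure D4:**
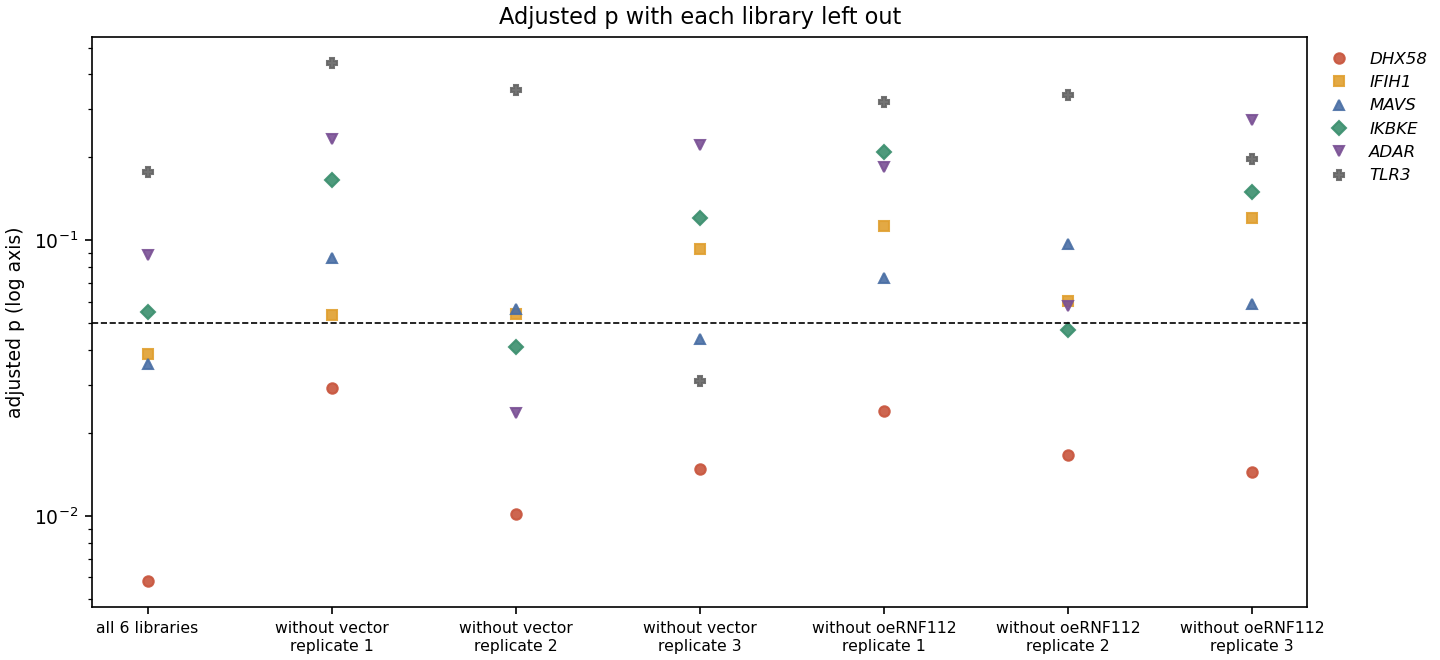
Adjusted p (log axis) from edgeR's test for 6 of the genes, with all 6 libraries and with each library left out in turn; the dashed line marks 0.05. *DHX58* stays below the line in all 7 fits, between 0.00583 and 0.0291, whereas *IFIH1* lies below it only with all 6 libraries and *MAVS* only with all 6 and without vector replicate 3.

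No single library held the extreme value of all genes. In normalized CPM, vector replicate 3 was the lowest of its group for 4 of the 9 genes tested (*IFIH1*, *TLR3*, *TBK1* and *ADAR*), and vector replicate 2 the highest for 4 (*TLR3*, *CGAS*, *MAVS* and *ADAR*). In oeRNF112, replicate 2 was the lowest for 5 genes (*IFIH1*, *TLR3*, *MAVS*, *TICAM1* and *ADAR*) and replicate 3 the highest for 5 (*IFIH1*, *TLR3*, *CGAS*, *TICAM1* and *ADAR*).

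Ratios between genes of the same library do not depend on how the libraries were scaled, and 4 such ratios of RPKM were compared. The log2 ratio of *IFIH1* to its adaptor *MAVS* was -0.83, -1.32 and -1.12 in vector and -0.44, -0.14 and -0.35 in oeRNF112. The sensor thus stood closer to its adaptor in every oeRNF112 library, by 0.78 on the log2 scale. The log2 ratio of *IKBKE* to *TBK1* was -1.22, -1.25 and -0.93 in vector and -1.56, -1.40 and -1.47 in oeRNF112, lower by 0.34 in the mean and without overlap. Both differences had p = 0.1 in a two-sided exact permutation test, the smallest p that 3 against 3 libraries can give, and 0.2 after adjustment over the 4 ratios. The log2 ratio of *DHX58* to *IFIH1* differed by 0.19 (exact permutation p = 0.2, adjusted 0.267), and that of *TLR3* to *TICAM1* by -0.51 (exact permutation p = 0.3, adjusted 0.3). In the last, vector replicate 3, at -2.97, lay among the oeRNF112 libraries, which were between -3.06 and -2.94.

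The genes around these sensors were grouped into 8 lists of the same pathway, with 86 genes tested of 97 in the table. Of these, 21 (24.4%) were higher and 5 (5.81%) lower in oeRNF112, against 9.97% and 8.14% of all genes tested. Their median log2 fold change was -0.03. Like the 10 genes, the lists were chosen with earlier results of these data known. The effectors that act on double-stranded RNA and the list of interferon regulatory factors, STATs and NF-kB subunits had the highest shares of higher genes, beside the few first-wave products, and most genes of the other lists were not called.

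Of 17 partners and regulators of the RIG-I-like receptors, 3 were higher (17.6%), 2 lower (11.8%) and 12 not called, and the median was -0.10. Over all genes tested, 9.97% were higher and 8.14% lower. *DDX58*, which encodes RIG-I, the third receptor of this family beside MDA5 and LGP2, had 7734, 6995 and 6368 counts in vector and 10778, 10460 and 10927 counts in oeRNF112. The groups did not overlap, and its log2 fold change of 0.53 (standard error 0.0881, edgeR adjusted p = 0.00363) was close to that of *DHX58*. *DDX60*, a helicase that assists RIG-I, rose by 0.76 (adjusted p = 0.00301) and *RNF125*, a ubiquitin ligase that limits RIG-I and MDA5, by 0.51 (adjusted p = 0.0306, called in 2 of 6 fits that left out 1 library, adjusted p up to 0.115). *TKFC*, which restrains MDA5, fell by 0.42 (adjusted p = 0.0182, called in 3 of these 6 fits, adjusted p up to 0.0922). *TRIM25*, a ubiquitin ligase that acts on RIG-I, stood at 0.0007 (edgeR, adjusted p = 0.997).

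Of 14 partners and nucleases of DNA sensing, edgeR called 2 higher (14.3%, against 9.97% of all genes tested) and none lower (against 8.14%). Of the 14, 5 had an unadjusted p under 0.05 with edgeR, while DESeq2 called 2 lower. *SAMHD1*, which limits the supply of deoxynucleotides, rose by 0.50 (adjusted p = 0.00375) and *IFI16*, a nuclear DNA sensor, by 0.48 (edgeR, adjusted p = 0.00703). *STING1*, the adaptor of cGAS, had 1757, 1815 and 1901 counts in vector and 1720, 1848 and 1545 counts in oeRNF112, and was not called (log2 fold change -0.18, edgeR adjusted p = 0.254). *AIM2*, a sensor of cytosolic DNA in inflammasomes, had at most 6 counts in any library.

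Of 15 scaffolds and ubiquitin adaptors of the kinases, edgeR called 3 higher (20%, against 9.97% of all genes tested) and none lower (against 8.14%). With edgeR 4 had an unadjusted p under 0.05, and DESeq2 called none lower. *MLKL*, the executor of necroptosis, rose by 0.46 (adjusted p = 0.00675), *TBKBP1*, a scaffold of TBK1, by 0.44 (0.0228), and *CHUK*, which encodes IKKα, by 0.35 (0.0498). *TBKBP1* and *CHUK* were called in 3 and 2 of the 6 fits that left out 1 library, with adjusted p up to 0.0978 and 0.183. *RIPK3*, the partner of ZBP1 and MLKL in necroptosis, had at most 3 counts in any library. In the endosomal Toll-like receptor pathway, none of the 7 genes tested was called by edgeR or DESeq2 and none had an unadjusted p under 0.05 with edgeR. Over all genes tested, edgeR called 18.1%. *TLR7*, *TLR8* and *TLR9* had at most 7 counts in any library, so *TLR3* was the only endosomal nucleic acid receptor of this family above the filter.

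The effectors that act on double-stranded RNA held the largest log2 fold changes among these lists. Of 10 tested, 6 were higher (60%, against 9.97% of all genes tested) and 1 lower (10%, against 8.14%), and the median was 0.46. *OAS1*, *OAS2* and *OAS3*, oligoadenylate synthases activated by double-stranded RNA, rose by 1.60, 1.58 and 1.41 (adjusted p = 1.96e-05, 2.05e-05 and 0.000283 by edgeR). *OAS1* had 1264, 1156 and 1179 counts in vector and 3563, 4175 and 3784 counts in oeRNF112. *OASL*, their relative, stood at -0.08 (edgeR, adjusted p = 0.601). *ADARB1*, the second editing enzyme of the ADAR family, rose by 0.53 (edgeR, adjusted p = 0.00609).

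Of the 10 genes of the list of interferon regulatory factors, STATs and NF-kB subunits, 4 were higher (40%) and 1 lower (10%). The shares over all genes tested were 9.97% and 8.14%. *IRF7*, the inducible factor downstream of TBK1, had 1187, 1122 and 1233 counts in vector and 2701, 3181 and 2564 counts in oeRNF112, a log2 fold change of 1.17 (standard error 0.112, edgeR adjusted p = 0.000263). *IRF5*, a relative of IRF7, rose by 0.74 (edgeR, adjusted p = 0.00658). *IRF1* fell by 0.78, from 2786, 2598 and 2631 counts to 1644, 1623 and 1670 counts (edgeR, adjusted p = 0.000411). *IRF3*, the constitutive substrate of TBK1, stood at 0.10 (adjusted p = 0.626).

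Of the interferons on the list, only *IFNE*, an epithelial type I interferon, passed the filter, with 16, 42 and 29 counts in vector and 41, 32 and 35 counts in oeRNF112, and it was not called (log2 fold change 0.23, edgeR adjusted p = 0.684). *IFNB1* had 4, 2 and 0 counts in vector and 1, 2 and 1 counts in oeRNF112, and *IFNL2* and *IFNL3* had at most 2 counts in any library. *IFNL1* had 5, 4 and 2 counts in vector and 8, 25 and 10 counts in oeRNF112, and it failed the filter. Among the genes that IRF3 can induce directly, *IFIT2* fell by 0.60 (adjusted p = 0.00587), whereas *IFIT1* and *IFIT3* rose by 0.39 and 0.34 (edgeR, adjusted p = 0.0247 and 0.0279, called in 3 and 2 of the 6 fits that left out 1 library, adjusted p up to 0.0703 and 0.0831). *CXCL10* had at most 4 counts in any library. Of the 8 receptors and receptor kinases, edgeR called 1 higher (12.5%, against 9.97% of all genes tested) and none lower (against 8.14%). The higher gene was *IFNLR1*, the receptor chain for lambda interferons, by 0.58 (edgeR, adjusted p = 0.0301, called in 1 of the 6 fits, adjusted p up to 0.115). With edgeR 2 of the 8 had an unadjusted p under 0.05, and DESeq2 called 1 higher and none lower.

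**Figure D5:**
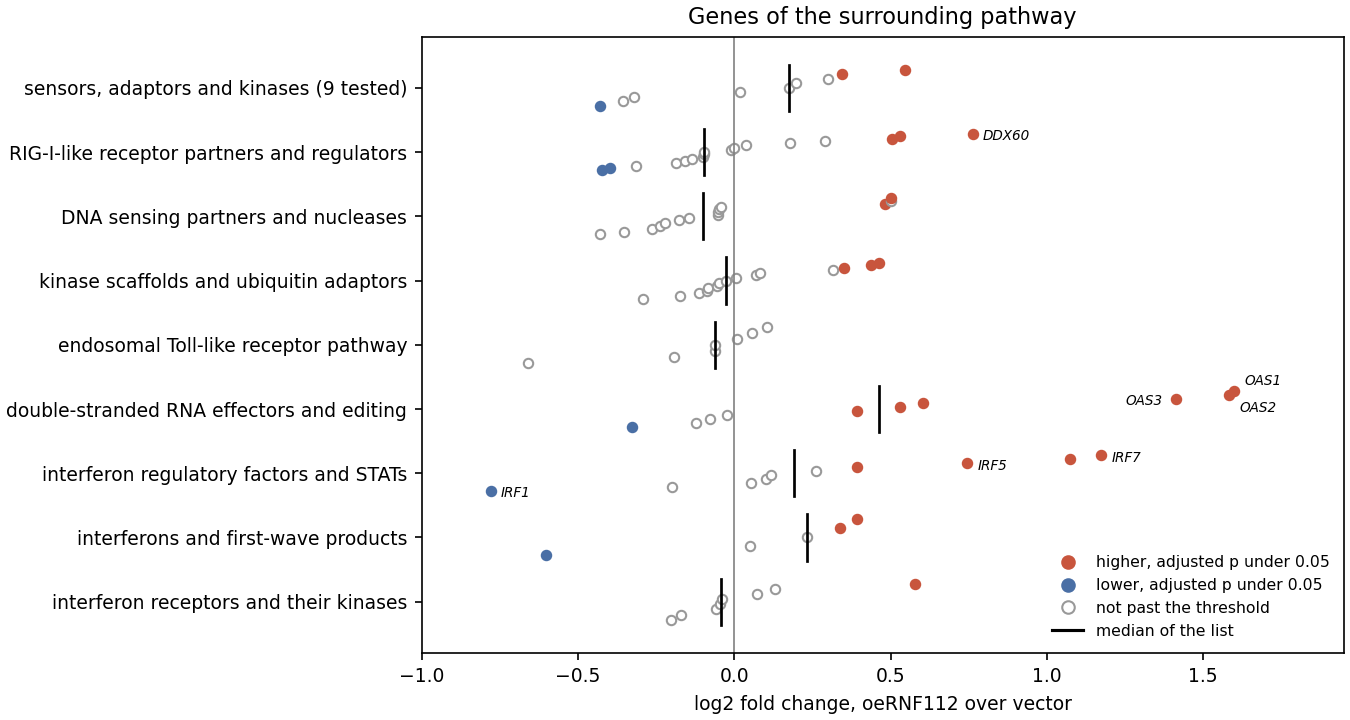
Log2 fold change of oeRNF112 over vector for the genes tested in each list; each point is a gene, red and blue points passed an adjusted p of 0.05 in edgeR's test, and black lines are list medians. *OAS1*, *OAS2* and *OAS3* lie farthest to the right between 1.41 and 1.60, *IRF1* lies farthest to the left at -0.78, and the sensors, adaptors and kinases lie between -0.43 and 0.55.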

How the data were processed

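For each of the 6 samples the authors deposited raw gene counts and, in a separate table, RPKM values. The submitters' processing notes name Trimmomatic 0.36, featureCounts from Subread 1.5.1 and the build GRCh38; the aligner, the annotation and the strand setting of the counting are not given in the sources used here. In 20637 of 20637 genes checked, RPKM could be recomputed from the count, the library total and 1 length per gene, so both tables hold the same measurement. Counts between samples differed by more than sampling noise, so no library was a copy of another.

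Samples were grouped by their titles. All genes were fitted together with edgeR 4.0.16 in R 4.3.3 (filterByExpr, TMM factors, quasi-likelihood test, Benjamini-Hochberg adjustment); standard errors were derived from the fold change and its F statistic. Ratios used an exact permutation test. Alternatives used DESeq2 1.42.0, limma 3.58.1 on log2(RPKM + 1) and log2(RPKM + 0.1), other scalings and filters, a replicate block, and each library left out in turn. Scripts were tested on simulated counts. Gene coordinates came from GENCODE v29. The members and the lists were chosen with earlier results of these data known. Named genes were the 10 members, *RNF112*, the interferons, the abundant markers and in each list, the called genes lowest in p-value, up to 4; *TRIM25*, *STING1*, *AIM2*, *RIPK3*, *TLR7*, *TLR8*, *TLR9*, *OASL*, *IRF3*, *CXCL10*, *LYZ* and the uroplakins were named after their values had been seen. Some genes of the lists enter the counts but are not reported here by name.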

Additional observations from a re-analysis of the deposited data

How the results depend on the processing

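Of the members tested, *DHX58* was called in 13 of 14 alternatives, *IFIH1* in 6 and *MAVS* in 5. None of these 3 genes changed direction, while *TBK1* changed sign within the fits that left out 1 library, where it went from -0.038 to 0.077. The number of members called went from 1 to 3 in those fits, the number higher from 1 to 2 and the number lower from 0 to 2. Without a filter on low counts 1 member was higher. DESeq2 called 2 members lower. Library totals and limma with a pseudocount of 1 or 0.1 called 0 lower, each with 2 lower at an unadjusted p under 0.05. Library totals and limma with a pseudocount of 0.1 moved the median of the members to 0.269 and 0.266, while the median of all genes moved from 0.0027 to 0.096 and 0.092.

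The replicate block in edgeR called 0 members, 0 higher and 0 lower, with 2 higher and 1 lower at an unadjusted p under 0.05, and 876 of all genes. The adjusted p was 0.0586 for *DHX58*, 0.185 for *IFIH1* and 0.153 for *MAVS*. Deviations from the group means were not shared between same-numbered samples (r = -0.181, -0.539 and -0.454, while 0 of 6 samples correlated best with its own number), so the numbers were not taken as pairs. Over all genes, leaving out 1 library gave between 1061 and 3387 called genes, against 2620. The causes of these changes were not tested.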
